A study of Mus musculus with 4 samples.

Results

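The interleukin 1 (IL-1) family and its receptors were followed across the cell classes of the mouse digit as 10 genes, selected by symbol from the 33696 genes of the count tables. The ligands were Il1a, Il1b, Il18 and Il33, the antagonists Il1rn and Il36rn, the signaling receptors and their shared chain Il1r1, Il1rl1 and Il1rap, and the decoy receptor Il1r2. All 10 had UMIs in every library. The 4 libraries were made with 10x 3' v3 chemistry from P3 digits (hindlimb digits 2 to 4, cut at the proximal end of the second phalanx) of female C57BL/6 mice aged 6 to 8 weeks, with the digits of 10 mice pooled in each. In the first experiment, mice with amputated digit tips were fed chow with SAR131675, an inhibitor of the lymphatic receptor VEGFR3, at 30 mg/kg for 8 days (SAR131675 diet) or chow without it (control diet). In the second, mice also had digit tips amputated. The draining lymph nodes of 1 limb were removed (LNR) and the other limb of the same mice had sham surgery (sham), so these libraries share animals. By the paper's methods the amputated digits were 2 and 4 on both hindlimbs, while digits 2 to 4 were pooled. The sources used here differ on the day after amputation of the diet libraries, and no day is given here for either experiment.

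Each condition had 1 library of 1 pool, and each library was its own batch, so the treatment and the batch cannot be told apart, and conditions could not be tested against each other. The count tables held 30831 to 38464 barcodes in the diet experiment and 21669 to 22539 in the node experiment, and 75.6% to 91.7% of them were kept (200 to 5500 genes, at most 30000 UMIs, at most 10% mitochondrial UMIs). Kept cells had a median of 11316 UMIs (SAR131675 diet), 10712 (control diet), 5725 (LNR) and 5851 (sham). The diet libraries shared 348 barcodes and the node libraries 130, against 0 to 3 across experiments. The cause of this split between experiments was not tested. Levels are in CPM: the UMIs of a gene summed over a class in a library, scaled to a sum of 1000000 UMIs for that class, with an exact 95% Poisson interval in brackets. All intervals cover counting error only. CPM is not divided by gene length, but a 3' library counts transcript ends. Values are written in the order SAR131675 diet, control diet, LNR, sham, and the experiments differ in depth, so they are set side by side and not compared.

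IL-1α and IL-1β, the products of Il1a and Il1b, bind the same receptor, IL-1R1, which signals only after recruiting the accessory chain encoded by Il1rap. IL-33 uses the same accessory chain with ST2, the product of Il1rl1. The family is held in check by Il1rn, which encodes a receptor antagonist, by Il36rn, which encodes the antagonist of the related IL-36 receptor, and by Il1r2, a receptor that binds IL-1 but has no signaling domain. In skin, neutrophils and other myeloid cells are known sources of IL-1β, and keratinocytes are known stores of IL-1α, IL-18 and IL-33 that are released on injury.

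The promoters of Il1b, Il1a and Il1r2 are shown as those of both IL-1 ligands and of the decoy that binds them, which like Il1rn and Il1rap had their highest mean CPM of the named classes in neutrophils. Of the 3, Il1a and Il1b lie close together on chromosome 2 and Il1r2 lies on chromosome 1. Each is the 250 bases before the RefSeq start in GRCm38.p6, 5′ to 3′ on the gene's strand, at chr2:129371140-129371389 (minus strand) for Il1b, chr2:129309973-129310222 (minus) for Il1a and chr1:40085843-40086092 (plus) for Il1r2. Capitals mark matches, on either strand, to 4 motifs that were searched by letters. The TATA box was searched as TATAAA and the motif of the myeloid factor PU.1 as GAGGAAG. The motif of the C/EBP family was searched as TTGCNNAA and that of AP-1 as TGANTCA.
Il1b: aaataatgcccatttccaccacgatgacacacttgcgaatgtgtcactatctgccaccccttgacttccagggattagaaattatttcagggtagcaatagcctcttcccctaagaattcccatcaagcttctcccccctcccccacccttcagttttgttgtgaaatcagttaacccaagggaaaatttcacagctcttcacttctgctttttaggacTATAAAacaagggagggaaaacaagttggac
Il1a: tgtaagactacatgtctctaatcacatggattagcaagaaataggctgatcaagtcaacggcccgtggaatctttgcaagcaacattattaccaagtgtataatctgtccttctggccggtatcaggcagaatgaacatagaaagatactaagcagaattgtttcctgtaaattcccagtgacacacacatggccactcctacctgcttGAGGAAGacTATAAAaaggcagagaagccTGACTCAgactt
Il1r2: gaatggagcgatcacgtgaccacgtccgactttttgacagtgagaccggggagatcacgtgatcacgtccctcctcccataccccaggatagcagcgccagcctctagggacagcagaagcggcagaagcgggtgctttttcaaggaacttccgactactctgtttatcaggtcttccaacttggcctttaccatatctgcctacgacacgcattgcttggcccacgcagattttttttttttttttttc
Il1b held a TATAAA at -31 to -26 and Il1a at -32 to -27, counted from the start. Il1a also held GAGGAAG at -41 to -35 and TGACTCA at -12 to -6, and Il1r2 held none of the 4. Of the others, Il1rn held TGAGTCA at -141 to -135 and Il1rap held none. Of all 32851 promoters of the same length, 12.4% held TATAAA, 9.56% TTGCNNAA, 10.6% GAGGAAG and 6.75% TGANTCA. A match is a description of letters and not a site in use. The promoter table matched 9 of the 10 genes, with 14 starts.

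**Figure D1:**
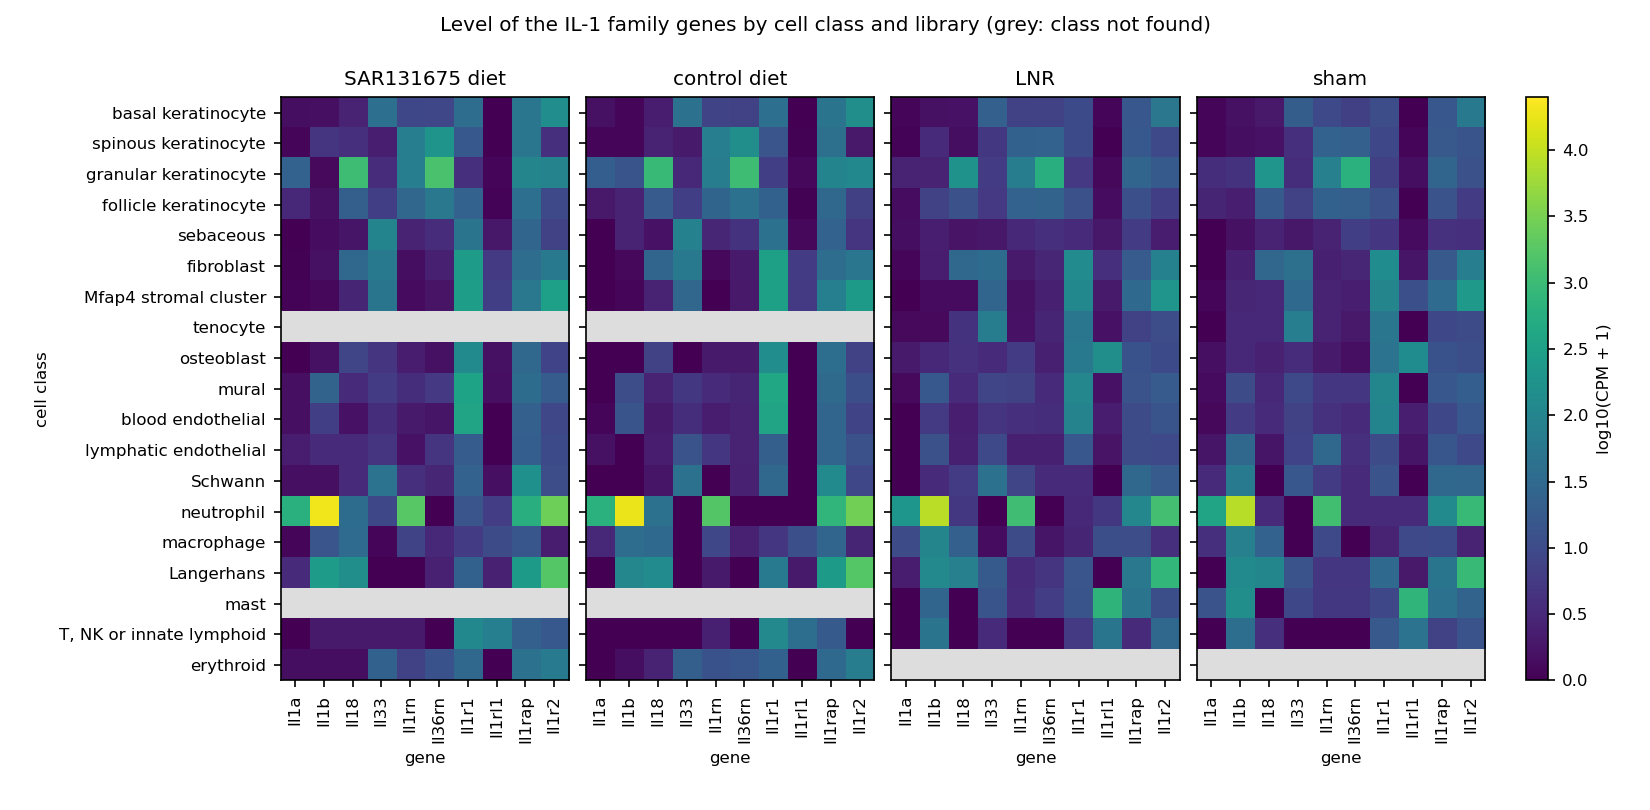
Level of each of the 10 genes (columns) in 19 cell classes (vertical axis) in each library, as log10(CPM + 1); grey marks classes not found in an experiment. Il1b in neutrophils is the brightest square of all 4 panels, Il18 and Il36rn stand out in granular keratinocytes, and Il1r1 in fibroblasts, mural and endothelial cells.

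Il1b was highest in neutrophils. Their Il1b level was 20222 CPM [19769 to 20683] in 145 cells of the SAR131675 diet library, 18705 [18122 to 19303] in 78 cells of the control diet library, 8718 [8454 to 8988] in 246 LNR cells and 8313 [8033 to 8600] in 212 sham cells. At least 1 Il1b UMI was found in 100%, 98.7%, 90.7% and 87.7% of them. As a class, which in the node experiment alone takes in a cluster led by granule genes, neutrophils were 0.499%, 0.325%, 1.24% and 1.03% of kept cells but held 54.8%, 50.6%, 32.6% and 37.8% of the Il1b UMIs. With cells thinned to 1500 UMIs these shares were 81.0%, 79.2%, 26.3% and 28.8%. Cells left unnamed held 5416 of 13798 and 3211 of 7678 Il1b UMIs in the diet libraries. In the node experiment an unnamed cluster led by Mmp12, Arg1 and Clec4n held 2144 of 12645 (LNR) and 857 of 8813 (sham). Another, led by Cd74, H2-Aa and H2-Ab1, held 1458 and 1393. The next named class was at 262 CPM or below in the diet experiment. In basal keratinocytes, which should hold little Il1b, 0.620%, 0.166%, 0.546% and 0.457% of cells had a UMI at median depths of 12947, 12174, 8345 and 8131 UMIs, far deeper than the neutrophils (2454, 2426, 1168 and 1164). Erythroid cells, found in the diet experiment only, had 1 Il1b UMI in each library.

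Within the node experiment the neutrophil class joined 2 clusters. The cluster led by Ccl4, Ccl3 and Retnlg had 14504 and 14425 CPM of Il1b in LNR and sham, and the cluster led by Ngp, Camp and S100a8 had 412 and 289. Ngp and Camp encode granule proteins that neutrophils make while they mature. A diet cluster led by Camp, Ngp and S100a8 was left unnamed and outside the class, with 1069 and 1010 CPM. So were diet clusters led by S100a9, Acod1 and Ccl4, with 782 and 644, and by Ccl4, S100a9 and Cd74, with 369 and 282. Other myeloid clusters followed. A cluster led by Mmp12, Arg1 and Clec4n, left without a cell type name, had 5013 [4803 to 5230] and 4679 [4371 to 5003] CPM in 73 LNR and 32 sham cells. Clusters led by Cd74 and H2-Aa, genes of antigen presentation, had 1454 and 1480 CPM in the diet libraries and 1850 and 1782 in the node libraries. A smaller diet cluster led by H2-Aa, Cd74 and Lyz1 had 525 and 902 CPM in 43 and 32 cells. Monocytes, named in the node experiment, had 3892 and 2887 CPM in 48 and 41 cells. Named macrophages were far lower, at 13.7, 37.0, 99.3 and 82.3 CPM, and the 10 cells with the most Il1b held 76.6%, 95.8%, 62.4% and 65.4% of their UMIs. An unnamed node cluster led by C1qb, C1qa and Pf4 had 461 and 357 CPM, from 1073 (LNR) and 840 (sham) Il1b UMIs. C1qa and C1qb are among the naming markers of macrophages, so the low level holds for the named macrophages only. Langerhans cells, the antigen-presenting cells of the epidermis, had 262, 106, 119 and 126 CPM, with 83.9%, 93.9%, 79.8% and 61.6% in 10 cells.

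Over all kept cells Il1b was 40.6 CPM in the SAR131675 diet library and 28.9 in the control diet library, a log2 ratio of 0.49 [0.45 to 0.53]. It was 88.5 in LNR and 58.5 in sham, a log2 ratio of 0.60 [0.56 to 0.64]. Both treated libraries were higher. The level within neutrophils differed less, by a log2 ratio of 0.11 [0.06 to 0.17] and 0.07 [0.00 to 0.13]. The unnamed node cluster led by Camp, Cfd and Ccl4 had 0.56 [0.43 to 0.69]. That led by Mucl1, Htra4 and G0s2 had 0.67 [0.42 to 0.93]. The Mmp12 Arg1 cluster had 0.10 [-0.02 to 0.22] and the node cluster led by Cd74 and H2-Aa 0.05 [-0.05 to 0.16]. All unnamed cells of the diet experiment had 0.03 [-0.04 to 0.09], but clusters among them moved both ways. Those led by Ccl4, S100a9 and Cd74 and by S100a9, Acod1 and Ccl4 had 0.39 [0.22 to 0.56] and 0.28 [0.05 to 0.52]. Those led by H2-Aa, Cd74 and Lyz1 and by Camp, H2-Ab1 and H2-Aa had -0.78 [-1.03 to -0.54] and -0.41 [-0.76 to -0.05]. In the diet experiment neutrophils made up 22.3 and 14.6 of the library CPM. In the node experiment they made up 28.9 and 22.1, and the Mmp12 Arg1 cluster 15.0 and 5.69, with 0.368% [0.289 to 0.463] and 0.155% [0.106 to 0.218] of kept cells. The share of cells moved with the library level in both experiments. So did the level within some clusters of each, while that of other diet clusters moved against it. The part of each in the library level was not tested.

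**Figure D2:**
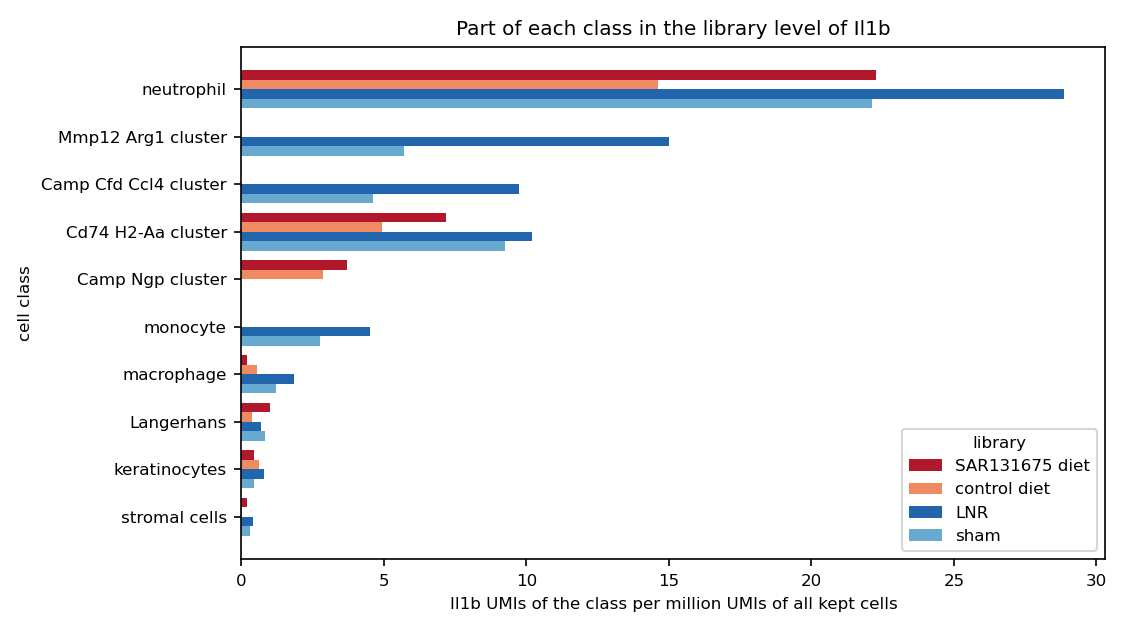
Part of each cell class or cluster (vertical axis) in the library level of Il1b, on the CPM scale of all kept cells; bars start at 0 and colors mark libraries. Neutrophils hold the longest bar in each library (22.3, 14.6, 28.9 and 22.1), and the Mmp12 Arg1 cluster of the node experiment reads 15.0 in LNR and 5.69 in sham.

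Il1a, the other IL-1R1 ligand, was scarce. It had 593, 449, 390 and 372 UMIs in all kept cells, or 1.75, 1.69, 2.73 and 2.47 CPM. Neutrophils led the named classes here too, with 612 [536 to 697], 650 [545 to 769], 203 [164 to 248] and 374 [317 to 439] CPM. The unnamed Mmp12 Arg1 cluster had 264 and 240, above the neutrophil class in LNR. The neutrophil cluster led by Ccl4, Ccl3 and Retnlg alone had 344 and 655 in LNR and sham. Granular keratinocytes, the outermost living layer of the epidermis, came next in the diet experiment with 23.5 and 19.8 CPM. In the node experiment they had 1.79 [0.774 to 3.53] and 2.83 [1.51 to 4.85], from 8 and 13 UMIs. Basal keratinocytes had 0.437, 0.558, 0.206 and 0.152 CPM. The LNR neutrophils were below the sham ones by a log2 ratio of -0.88 [-1.27 to -0.50], but the sign turned to 0.64 when each library was clustered alone, and the cause was not tested. The sham level was 122 CPM there, and at a clustering resolution of 1.2 the node levels were 69.4 and 134.

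Il18, whose product is cut by caspase-1 like IL-1β, was a gene of the granular layer. Its level there was 1090 [1066 to 1115], 963 [943 to 983], 177 [165 to 190] and 196 [183 to 209] CPM, and these cells held 76.8%, 85.2%, 47.7% and 48.9% of the Il18 UMIs. With cells thinned to 1500 UMIs and clustered again, the shares were 30.5%, 34.4%, 27.8% and 30.8% and the diet levels 1802 and 1770 CPM. Spinous cells just beneath had 3.07, 1.74, 0.456 and 0.620 CPM, and basal cells 1.64, 1.27, 0.618 and 0.970. Langerhans cells were next, with 148 [128 to 171], 133 [110 to 158], 82.7 [64.4 to 105] and 102 [83.1 to 124] CPM. Fibroblasts had 30.1, 26.3, 28.4 and 27.4, and their intervals overlapped those of macrophages (34.0, 30.5, 21.7 and 23.6) in every library. Neutrophils had 34.8 and 43.3 CPM in the diet libraries, from 13 and 9 UMIs, overlapping both. Erythroid cells had 1 and 4 Il18 UMIs.

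Il18 was lower over all kept cells of the SAR131675 diet library, 29.3 against 38.5 CPM (log2 ratio -0.40 [-0.44 to -0.36]), and close in LNR and sham, 11.6 and 12.2 (-0.08 [-0.17 to 0.02]). Inside granular keratinocytes the order was the other way in the diet experiment (0.18 [0.13 to 0.22]). These cells were 1.39% [1.26 to 1.53] of kept cells in the SAR131675 diet library and 2.38% [2.19 to 2.58] in the control diet library. With each library clustered alone, the granular level of the SAR131675 diet library was 565 CPM and the ratio -0.81. Granular cells are among the deepest (median 20161 and 18614 UMIs), and the part of the upper limits on cells in their share was not tested.

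Il36rn had the same place. Its level in granular keratinocytes was 1364 [1337 to 1392], 1083 [1062 to 1105], 565 [543 to 588] and 650 [627 to 674] CPM, with 63.9%, 69.3%, 72.2% and 70.1% of its UMIs. With cells thinned to 1500 UMIs and clustered again, the diet values were 581 and 477 CPM and 7.28% and 7.22% of UMIs, and with no upper limits on cells the shares were 35.1% and 43.4%. Unlike Il18 it was graded: spinous cells had 186, 150, 22.8 and 21.4 CPM and basal cells 7.52, 6.11, 6.42 and 5.79. Of the granular cells with an Il18 UMI, 93.0%, 86.7%, 98.8% and 96.4% also had an Il36rn UMI. The share over all granular cells is not set beside these values, so they measure no link between the genes. Over all kept cells it was 44.1 against 53.3 CPM (log2 ratio -0.27) and 24.5 against 28.2 (-0.21). Fibroblasts had 1.39, 1.10, 1.95 and 2.00 CPM, and erythroid cells 12.0 and 14.2.

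Il1rn, the receptor antagonist, was shared by neutrophils and the upper epidermis. Neutrophils had 1797 [1664 to 1938], 1637 [1467 to 1820], 1112 [1019 to 1211] and 1148 [1045 to 1258] CPM, or 0.0889, 0.0875, 0.128 and 0.138 Il1rn UMIs per Il1b UMI. At a clustering resolution of 1.2 the node levels were 616 and 523 CPM. Of the neutrophils with an Il1b UMI, 71.0%, 70.1%, 67.3% and 61.8% also had one of Il1rn. Nearly all diet neutrophils had an Il1b UMI, so there the values restate how often Il1rn was found in the class. The share over all neutrophils is not set beside the node values, so none of them measures a link between the genes. Granular keratinocytes had 74.9, 72.4, 73.3 and 81.1 CPM. Spinous cells had 73.9 and 74.0 in the diet experiment, overlapping the granular ones, and 22.5 and 23.3 in the node experiment, below them. Follicle keratinocytes had 27.0, 25.7, 23.0 and 22.0, and the Mmp12 Arg1 cluster 683 and 519. Over all kept cells Il1rn was 14.1, 15.8, 17.4 and 16.7 CPM.

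Il33, a nuclear alarmin, marked the other end of the epidermis and part of the stroma. Basal keratinocytes had 39.7 [38.3 to 41.1], 45.3 [43.6 to 47.1], 21.4 [19.8 to 23.2] and 18.7 [17.2 to 20.2] CPM and held 39.9%, 43.8%, 28.3% and 27.7% of its UMIs. Spinous cells had 1.36, 1.12, 4.11 and 3.00. Fibroblasts had 59.9 [56.8 to 63.1], 59.2 [55.9 to 62.7], 34.4 [31.4 to 37.6] and 40.3 [36.9 to 44.0], and tenocytes, the tendon fibroblasts found in the node experiment, 71.3 [62.5 to 81.1] and 74.2 [64.9 to 84.4], or 129 and 135 with cells thinned to 1500 UMIs. Sebaceous cells read highest in the diet experiment, at 96.7 and 84.0 CPM, against 0.898 and 0.916 in the node experiment. That diet value is not stable: it reached as low as 8.63 and 7.71 under other settings, and fibroblasts led in 4 of them. Schwann cells led when cells with markers of 3 broad classes were removed. Schwann cells, the glia of peripheral nerves, had 45.5, 43.9, 42.3 and 14.9 CPM in the main setting. Osteoblasts, by contrast, had 3.64, 0, 2.50 and 2.61. Erythroid cells had 21.9 and 20.6, near the 22.1 and 22.3 of all kept cells. A stromal cluster led by Mfap4 had 50.5 and 26.9 in the diet experiment (log2 ratio 0.91 [0.66 to 1.16]) and 26.5 and 30.9 in the node experiment (-0.22 [-0.57 to 0.12]).

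**Figure D3:**
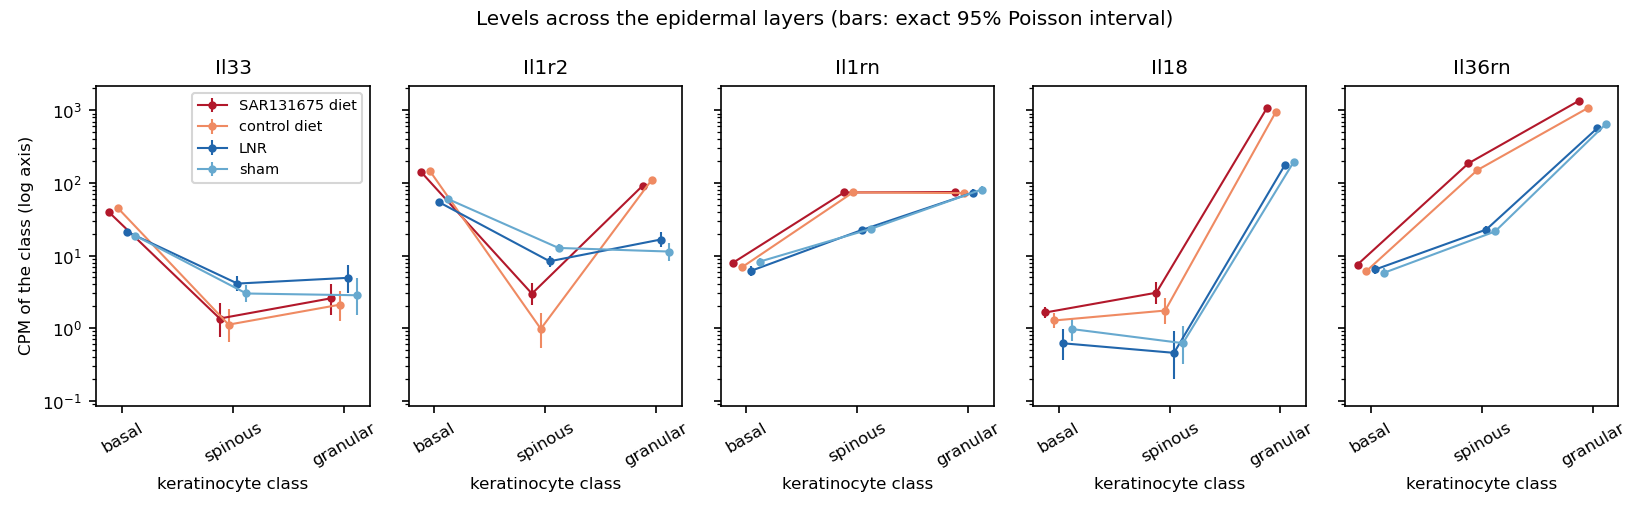
Levels of 5 genes (panels) in basal, spinous and granular keratinocytes (horizontal axis) in CPM on a log axis, with exact 95% Poisson intervals; colors mark libraries. Il33 is highest in the basal class in all 4 libraries, Il18 and Il36rn in the granular class, and Il1r2 dips in the spinous class of the diet libraries (2.98 and 0.977).

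Among the receptors, Il1r1 had its highest levels in stroma and vessels. In the diet experiment blood endothelial cells had 374 [360 to 388] and 374 [357 to 390] CPM, mural cells, which wrap vessels, 357 [341 to 373] and 416 [396 to 438], and fibroblasts 266 [260 to 273] and 312 [304 to 320]. Blood endothelial and mural cells overlapped in the SAR131675 diet library and not in the control diet one. That order turned when cells with markers of 3 broad classes were removed, which left mural cells at 158 and 151 CPM, and with no upper limits on cells. In the node experiment fibroblasts led with 129 [123 to 135] and 138 [131 to 145], above mural (110 and 102) and blood endothelial cells (91.3 and 94.6), whose intervals overlapped. At a clustering resolution of 1.2 mural cells led there with a mean of 106 CPM. Fibroblasts held 26.8%, 31.4%, 37.3% and 37.5% of the Il1r1 UMIs. Osteoblasts had 125, 145, 59.6 and 47.0 CPM. Basal keratinocytes had 36.7, 39.7, 8.89 and 9.85, and granular ones 3.00, 5.52, 4.48 and 5.89. Immune classes differed. T, NK or innate lymphoid cells had 103 and 83 Il1r1 UMIs in the SAR131675 diet and control diet libraries. Neutrophils had 5, 0, 1 and 1 UMIs, and 0 of 78 cells in the control diet library allows a share of up to 3.85% of cells with a UMI. At a median of 2426 UMIs this limits cells with a UMI and not cells that express the gene. Erythroid cells had 29.2 and 22.3 CPM, and macrophages 4.92 and 3.88.

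Il1r2, the decoy, had its highest levels in other cells, but stromal cells also held much of it. All stromal cells together held 4016 of 23079, 2873 of 17270, 2404 of 6639 and 2113 of 6917 Il1r2 UMIs. Neutrophils had 2691 [2527 to 2862], 2893 [2666 to 3134], 1198 [1102 to 1301] and 931 [839 to 1030] CPM, and Langerhans cells 1716 [1645 to 1789], 1703 [1620 to 1788], 831 [770 to 895] and 947 [887 to 1009]. The intervals of the pair were apart in 3 libraries and overlapped in sham, and in the node experiment Langerhans cells led under 4 of 7 alternatives. Basal keratinocytes had 142, 146, 54.5 and 60.3 CPM and held 46.4%, 48.5%, 23.9% and 28.8% of the UMIs. Granular cells had 92.0, 110, 16.6 and 11.3, and spinous cells 2.98, 0.977, 8.33 and 12.7. The Mfap4 stromal cluster had 298 [287 to 310], 249 [238 to 261], 199 [188 to 212] and 230 [216 to 244], and fibroblasts 59.9, 51.7, 85.9 and 75.7. Erythroid cells had 61.7 and 69.9 CPM, near the 68.0 and 65.0 of all kept cells, while macrophages had 1.28 and 1.81, so the erythroid level is not one that all classes share.

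Set against each other, the receptors differed in share between classes, and many classes held both. Il1r2 made up 99.5%, 100%, 99.8% and 99.7% of the Il1r1 and Il1r2 UMIs of neutrophils, and 98.7%, 96.6%, 98.4% and 96.8% of those of Langerhans cells. It made up 79.5% [78.8 to 80.1], 78.6% [77.8 to 79.4], 86.0% [84.3 to 87.5] and 86.0% [84.5 to 87.4] in basal keratinocytes. In fibroblasts it was 18.4%, 14.2%, 39.9% and 35.5%, and in blood endothelial cells 2.01%, 1.85%, 12.6% and 13.6%. In the erythroid cells of the diet experiment it was 67.9% [61.2 to 74.2] and 75.8% [69.5 to 81.4]. The Mfap4 cluster lay between fibroblasts and basal keratinocytes, at 51.6%, 44.1%, 64.2% and 69.4%. The treated library of that cluster was higher in the diet experiment and lower in the node experiment. Keratinocytes were not alike. Spinous cells were at 16.2%, 6.80%, 48.3% and 61.7% and follicle keratinocytes at 26.4%, 20.9%, 32.6% and 31.3%, below the Mfap4 cluster. Granular cells were at 96.9%, 95.2%, 78.7% and 65.8%. Of the neutrophils with an Il1b UMI, 89.7%, 87.0%, 70.4% and 68.3% had an Il1r2 UMI. As for Il1rn, these values measure no link between the genes.

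**Figure D4:**
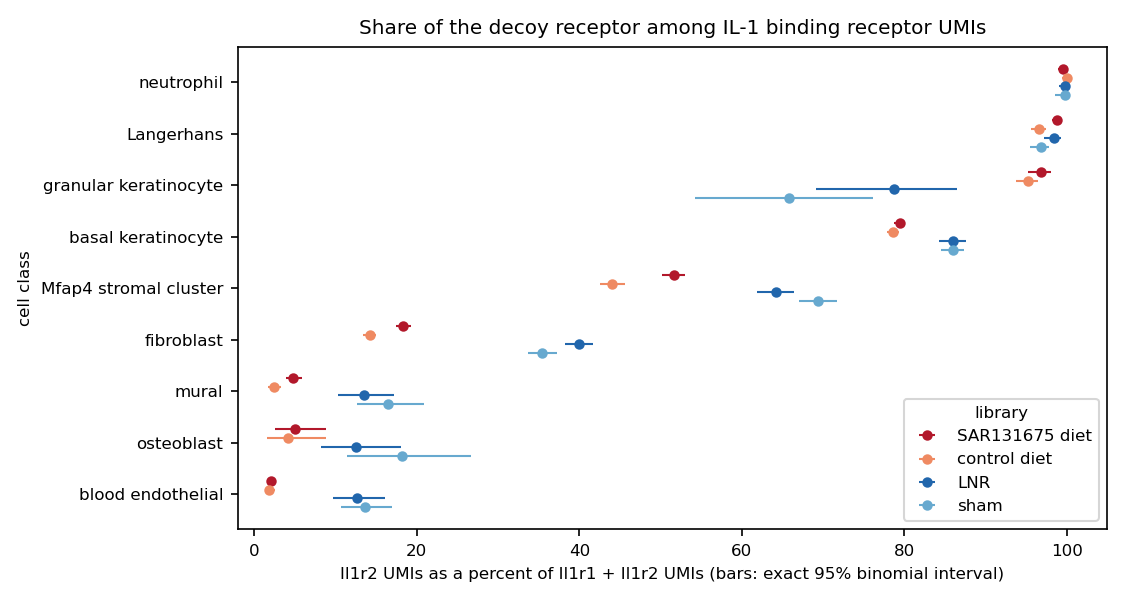
Il1r2 UMIs as a percent of Il1r1 and Il1r2 UMIs (horizontal axis) in 9 cell classes (vertical axis), with exact 95% binomial intervals; colors mark libraries. Neutrophils and Langerhans cells sit at 96.6% or above in every library and blood endothelial cells at 13.6% or below.

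Il1rap, the accessory chain, was counted in every class named here. Neutrophils had 594 [518 to 677], 775 [660 to 904], 108 [80.3 to 142] and 120 [88.3 to 159] CPM, and Langerhans cells 246, 252, 57.6 and 49.5. With cells thinned to 1500 UMIs the node neutrophils had 67.6 and 50.5, and mast cells led the named classes. Schwann cells had 162, 128, 29.9 and 29.7. Keratinocytes had 51.6, 47.5, 14.6 and 14.8 CPM in basal and 98.5, 97.2, 26.5 and 25.9 in granular cells. Fibroblasts, with much Il1r1, had 36.8, 36.8, 17.1 and 16.2, and 28.1%, 28.1%, 9.77% and 8.18% of fibroblasts with an Il1r1 UMI also had one of Il1rap. The share over all fibroblasts is not set beside these values. Erythroid cells had 45.0 and 31.3 CPM, not far from the 45.8 and 44.0 of all kept cells, and blood endothelial cells 21.1 and 25.9. Over all kept cells the treated and control libraries were close (45.8 and 44.0, 14.2 and 13.9).

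Il1rl1, the IL-33 receptor chain, was rare and patchy. In the node experiment mast cells, which use ST2 to respond to IL-33, led with 725 [642 to 815] and 761 [656 to 878] CPM and 58.5% and 63.0% of 176 and 138 cells with a UMI. No mast cell cluster was found in the diet experiment. There the larger cluster led by Cd74 and H2-Aa had 121 [105 to 139] and 116 [94.6 to 141], the smaller one led by H2-Aa, Cd74 and Lyz1 had 15.3 and 16.8, and T, NK or innate lymphoid cells 79.1 [62.1 to 99.3] and 37.8 [24.9 to 55.0]. The SAR131675 diet value of the last ran from 46.6 to 132 CPM over the alternatives. Macrophages had 9.20, 10.9, 10.5 and 8.46. Erythroid cells had 0 UMIs in both diet libraries, which allows up to 1.29 CPM in each (3 counts).

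The cluster named osteoblast by Bglap and Ibsp held 41.4% of the Il1rl1 UMIs in LNR and 37.3% in sham, at 151 [137 to 166] and 137 [121 to 154] CPM, against 1 and 0 UMIs in the osteoblasts of the diet experiment. Only 8.58% and 8.79% of these cells had a UMI. The 9 LNR and 6 sham cells with 10 or more Il1rl1 UMIs held 33.9% and 30.1% of all Il1rl1 UMIs of their library. Those 15 cells, picked out after their values were seen, had 0 Bglap UMIs, against 2616 CPM in the rest of the cluster, and 244 against 5486 CPM of Ibsp, another bone matrix gene. Mmp13, the collagenase that leads the cluster with Bglap and Ibsp but is not among the markers used for naming, was higher in them (5412 against 2949 CPM). Bglap and Ibsp are naming markers, so the osteoblast name is not carried over to these 15 cells. Their leading genes besides Il1rl1 were Cxcl2, Ccl5, Il11, Spink12 and Mmp3 (4832 against 718 CPM), with Col1a1 at 13350 against 9326 CPM and 1 Ptprc UMI, Ptprc being the general marker of blood cells.

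Over all kept cells none of the 10 genes passed 1.5-fold between the SAR131675 diet and control diet libraries, where 4.96% of 18944 genes with 100 or more UMIs did so. Between LNR and sham 2 of 10 did, against 2.31% of 16085 genes. These were Il1b (1.51-fold) and Il1rl1 (1.53-fold; 7.14 against 4.66 CPM, log2 ratio 0.62 [0.48 to 0.76]), both just past the limit. Without the 15 Il1rl1-rich cells of the osteoblast cluster Il1rl1 was 4.72 and 3.26 CPM (log2 ratio 0.53), inside the limit. The matching ratios in the diet experiment were just inside it (0.49 for Il1b, and 0.52 [0.34 to 0.71] for Il1rl1, at 2.00 and 1.39 CPM). The median log2 ratio of the 10 was 0.02 and 0.06, beside -0.01 and 0.02 over all genes. The log2 ratios of Il1r2, Il1rap, Il33 and Il1a lay between -0.01 and 0.14 in both experiments.

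**Figure D5:**
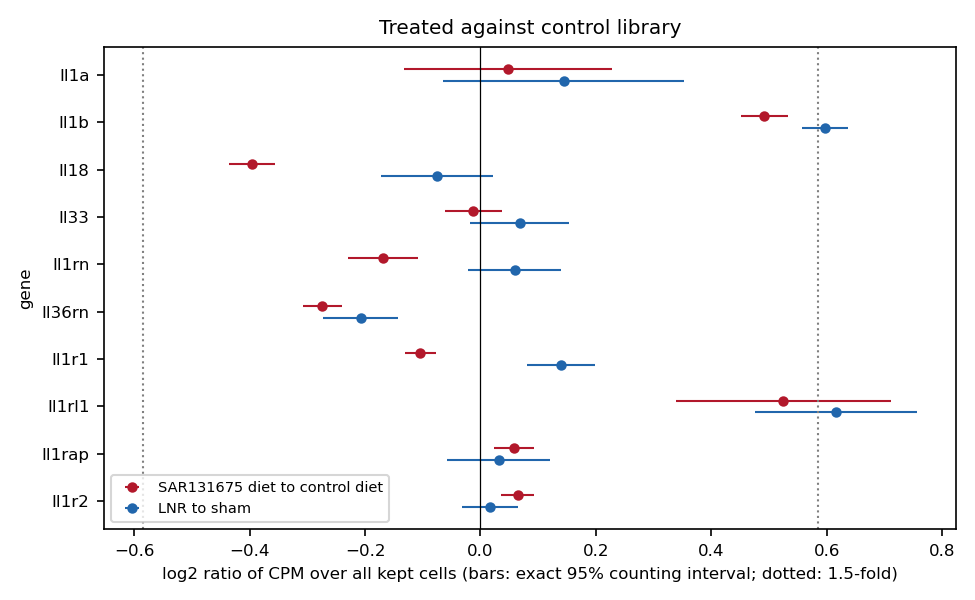
Log2 ratio of CPM over all kept cells, treated to control library, for each gene (vertical axis) in both experiments, with exact 95% counting intervals; dotted lines mark 1.5-fold. Il1b and Il1rl1 lie right of the dotted line in the node experiment (0.60 and 0.62) and just left of it in the diet experiment (0.49 and 0.52), and Il18 lies farthest left (-0.40, SAR131675 diet to control diet).

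Within classes some genes differed more. Over the 22 named classes of the diet experiment with 50 or more cells in both libraries, 8 of 82 values (1 gene in 1 class, with 100 or more UMIs) passed 1.5-fold, 4 higher and 4 lower with SAR131675, beside 4.38% of such values over all genes. Of these, 5 were Il1b. It was higher in Langerhans cells (log2 ratio 1.31 [0.98 to 1.65]), where 10 cells held most of its UMIs in each library. It was also higher in mural cells (24.4 and 9.83 CPM), where 10 cells held all of its UMIs. A few cells thus decide both ratios, which the counting interval does not cover. It was lower in blood endothelial cells (log2 ratio -1.20 [-1.79 to -0.63], from 42 and 70 UMIs), and in granular keratinocytes and macrophages as given below. The others were Il1rl1 in T, NK or innate lymphoid cells (1.07 [0.41 to 1.76], and 0.36 with each library clustered alone), Il1r2 in mural cells (18.1 and 10.4 CPM) and Il1rap in macrophages. Over the 21 named classes of the node experiment 7 of 53 values passed, all lower in LNR, beside 3.8% over all genes. Of these, 5 lay in the hair and nail class, among them Il36rn (6.20 and 28.1 CPM) and Il1b (2.07 and 13.5 CPM). A hair and nail cluster led by Krt36 and Krt84 had 8 LNR and 391 sham cells, so the makeup of that class moved with these values, and its part in them was not tested. The rest were Il1a in neutrophils and Il1r2 in spinous keratinocytes (8.33 and 12.7 CPM).

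In all keratinocytes 0 of 9 genes with 100 or more UMIs passed 1.5-fold in the diet experiment (5.87% of all genes). In the node experiment 1 of 8 passed (1.39%), Il1b, at 1.59 and 0.854 CPM from 114 and 67 UMIs. In granular keratinocytes the counts were 1 of 7 (4.66%) and 0 of 5 (2.96%). The gene was again Il1b, at 0.285 and 12.8 CPM, and 114 of the 116 control diet UMIs came from 1 cell. In stromal cells 0 of 7 (3.94%) and 0 of 9 (1.16%) passed. In neutrophils 0 of 5 (18.8%) and 1 of 4 (5.47%) passed, the latter Il1a. In macrophages 2 of 3 passed in the diet experiment (2.99%), Il1b and Il1rap, both lower with SAR131675 (Il1rap at 14.3 [11.1 to 18.2] and 25.8 [21.0 to 31.4] CPM), and 0 of 2 in the node experiment (1.44%). The 10 richest cells held 95.8% of the control diet macrophage Il1b, so a few cells decide that ratio.

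The wider pathway was read from 42 further genes grouped by role. Of the 40 with 100 or more UMIs in the diet experiment 2 were past 1.5-fold higher (Il6 and Saa3) and 1 lower (Il1f10), beside 4.96% of all genes either way, with a median log2 ratio of -0.08 beside -0.01 over all genes. Of 42 in the node experiment 4 were higher (Ctsg, Csf3, Saa3 and Mmp3) and 0 lower, beside 2.31% of all genes, with a median of 0.16 beside 0.02 over all genes. Saa3, an acute-phase gene that IL-1 induces, passed in the same direction in both, at 1.5 and 0.331 CPM (log2 ratio 2.18 [1.85 to 2.52]) and at 10.6 and 2.55 CPM (2.06 [1.90 to 2.22]). Both treated libraries were higher. It is a gene of low counts (509, 88, 1518 and 384 UMIs), led by fibroblasts in the diet experiment (15.1 and 2.25 CPM) and by osteoblasts in the node experiment (150 and 55.3). Saa3 is 1 of 13 listed targets of IL-1 signaling. The median log2 ratio of the 13 was 0.02 in the diet and 0.22 in the node experiment, beside -0.01 and 0.02 over all genes.

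The most abundant gene of each role is given by its level over all kept cells. Il36a, a ligand of the IL-36 receptor, had 16.1, 21.2, 4.00 and 5.92 CPM, with log2 ratios of -0.40 [-0.45 to -0.34] and -0.57 [-0.72 to -0.41]. It led in granular keratinocytes at 728, 587, 123 and 184 CPM, where the order was the other way in the diet experiment. Il1rl2, which encodes that receptor, had 47.9, 54.0, 16.2 and 15.8 and led in fibroblasts. Tab2, an adaptor of the kinase TAK1, had 101, 109, 78.3 and 78.1. Pycard, the inflammasome adaptor, had 267, 270, 254 and 268 and led in spinous keratinocytes. Nfkbia, the inhibitor that NF-κB itself induces, had 433, 413, 505 and 434 and led in neutrophils (7502, 4905, 3574 and 3539 CPM).

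The genes whose levels ran most like each member over 100 class by library values are given as a description, since those values share libraries, cells and depth. For Il1b they were Nlrp3 (r = 0.951), Ccrl2 (0.949) and Clec4e (0.927), and for Il1a Fpr1 (0.964), Cxcr2 (0.963) and Acod1 (0.956). For Il1rn they were Cxcr2 (0.887), Gpr35 (0.877) and Il36g (0.862). For Il36rn they were Cysrt1 (0.979), Wfdc5 (0.967) and Trex2 (0.964), and for Il18 Sdcbp2 (0.798), Gm46332 (0.779) and Lce1a2 (0.772). Il33 ran with Sema3c (0.715), Aldh3a1 (0.699) and Entpd2 (0.688). Il1r1 ran with Apbb2 (0.855) and Fam13c (0.795), and Il1r2 with Mmp9 (0.776), Itgax (0.756) and Bcl2a1a (0.706). Il1rap ran with Rabgef1 (0.815), Ndel1 (0.793) and Dusp16 (0.780), and Il1rl1 with Cd200r4 (0.817), Icam4 (0.776) and Il13 (0.776).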

How the data were processed

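For each library the authors deposited a table of UMI counts by gene and barcode, not normalized, in which every barcode had 500 or more UMIs. The submitters' processing notes name Cell Ranger 6.1.2 and GRCm39. The 10 genes and the gene lists were chosen with earlier results of these data known. Barcodes were kept at the limits given in the text, which the study states for the node experiment and which were used for both. Each cell was brought to a total of 10000 and a log was taken. From 2000 variable genes without the 10 genes and the pathway list, 30 principal components and a graph of 20 neighbors were clustered by Leiden at resolution 0.7, both libraries of an experiment together, and immune clusters were clustered again. Clusters were named from marker lists, and 5.92% to 7.98% of cells stayed unnamed. A cluster led by Camp and Ngp in the diet experiment was left unnamed although it scored as monocyte.

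The SAR131675 and LNR ratios carry exact intervals conditional on the summed counts, and a gene was counted past 1.5-fold with 100 or more UMIs over both libraries. No p-value was computed. In simulated counts 95.3% and 95.5% of intervals held the true ratio (18944 genes in the diet and 16085 in the node comparison). This bears on counting error alone, and not on UMIs that sit in a few cells. Doublets were scored but left in: the caller marked 4.98%, 5.22% and 4.23% of LNR, sham and SAR131675 diet cells and 0.466% of control diet cells, where it has not worked, against 15.9% to 23.3% expected from cell numbers, and 20.4% to 28.6% of cells held markers of 3 broad classes. Named genes were all 10 members, the 3 genes nearest to each by correlation of log2(CPM + 10), pathway genes past 1.5-fold in the same direction in both experiments, and the most abundant pathway gene of each role. Of the genes under this rule, 1 is not reported here. Other genes named were chosen after their values were seen. Python 3.11.15, numpy 2.4.6, scipy 1.17.1, pandas 2.3.3, igraph 0.11.9 and scikit-learn 1.9.0 were used. The genome tables at hand are GRCm38, so coordinates are given only for the RefSeq promoters.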

Additional observations from a re-analysis of the deposited data

Results flagged for a closer look

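UMIs of the 10 genes in barcodes that failed the limits on cells entered no comparison. They numbered 63900 in the SAR131675 diet library, 48921 in the control diet library, 3595 in LNR and 3715 in sham. That is 35.8%, 34.8%, 8.78% and 9.77% of all UMIs of these genes, beside 42.0%, 40.7%, 15.2% and 14.4% of the UMIs of all genes. In the diet libraries 5804 and 3984 barcodes had over 5500 genes, against 295 and 279 in LNR and sham.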

How the results depend on the processing

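No paired analysis was possible because each group had 1 library. All kept cells of LNR and sham gave 2 genes past 1.5-fold, but 0 at 2-fold (0.516% of all genes), and 1 each with no upper limits on cells (2.25%), with called doublets removed (2.31%), with ratios taken relative to the median gene (2.23%) and, chosen after seeing the data, with the 10% of cells of highest doublet score removed (2.74%) or without the 15 Il1rl1-rich cells (2.29%). The SAR131675 and control diet libraries gave 0, and 1 with those 10% removed (4.81%). The cause of these moves was not tested. The LNR to sham ratio of Il1a in neutrophils turned from -0.88 to 0.64 with each library clustered alone, and the cause was not tested. The ratio of Il1b over all kept cells ranged from 0.37 to 0.60 (LNR to sham) and from 0.39 to 0.66 (SAR131675 to control diet), that of Il1rl1 from 0.34 to 0.69 and from 0.49 to 0.91, and that of Il18 in the diet experiment from -0.76 to -0.31. In granular keratinocytes of the diet experiment, with each library alone, Il18 was -0.81 and Il36rn -0.43. Il1r1 in mural cells fell to 158 CPM (SAR131675 diet) and 151 (control diet) without cells that held markers of 3 broad classes. The leading class changed in the node experiment for Il1r2, to Langerhans cells under 4 alternatives, for Il18, to Langerhans cells with no upper limits, for Il1r1, to mural cells at resolution 1.2, and for Il1rap, to mast cells when thinned to 1500 UMIs. Depth limits the rarer genes: Il1a had 372 to 593 UMIs in a library and Il1rl1 as few as 369.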
